A study of Peromyscus maniculatus with 16 samples.

Results

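The comparison described here is that of deer mouse livers with steatosis (S) against livers without it (NS), among animals that all received the same high fat diet (HFD). Of the 16 animals of the series, 10 were on HFD and enter the comparison, 5 in S and 5 in NS, and they were chosen by the diet and steatosis labels alone. *Peromyscus maniculatus* is an outbred rodent kept as closed stocks. The diet had 58 kcal% fat and sucrose and was given for 28 weeks from an age of 3 to 4 months, so the animals were 10 months old at collection. Steatosis was scored on stained liver sections by an examiner who did not know the groups. Each group held 1 animal of the SM2 stock (*P. m. sonoriensis*), 10865 in NS and 10880 in S, and 4 animals of the BW stock (*P. m. bairdii*), and stock was a block in the comparison of the 10 animals. All NS animals were male. In S, 10880 and 36016 were male and 35982, 35955 and 35990, all BW, were female, so female sex occurred with steatosis only. The 6 chow animals (C), all male, are given beside the results as a description. Where 5 values follow each other, S is in the order 10880, 35982, 36016, 35955, 35990 and NS in the order 10865, 35963, 35987, 35930, 35937. Each animal is a replicate, and nothing was pooled.

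Steatosis is the storage of triglyceride in lipid droplets of hepatocytes. Fatty acids reach the hepatocyte by uptake from blood and by synthesis from acetyl-CoA, and they leave it by oxidation or as lipoprotein. The hepatocyte also makes most plasma proteins, including fibrinogen, haptoglobin and the other acute phase proteins, and it is lined by sinusoidal endothelium, Kupffer cells and stellate cells, which store vitamin A and can deposit collagen. In a whole liver sample a change in the number of cells of a type cannot be told apart from a change in RNA per cell.

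Total counts in the 10 livers lay between 4640733 and 10892425, and 11763 to 12868 genes had a count. Values are read counts scaled to the library total (CPM) with TMM factors. The 11 hepatocyte markers measured, of 14 listed, summed to 49660 to 67510 CPM in S and 58050 to 87860 CPM in NS, so the tissue was liver in every library, whereas markers of adipocytes (at most 51.2 CPM over the list), red cells (at most 11.4) and exocrine pancreas (at most 18.9) were low. Adipoq, the adipocyte hormone, had at most 0.244 CPM in the 10 animals and Plin1 at most 0.126.

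A library of S stood apart from all others. In S animal 36016, the only BW male of S and the library with the lowest total count, 88 genes with at least 5 CPM were at least 8 times higher than in any of the other 15 animals, and they took 1.31% of its counts. The other 15 animals had 0 to 9 such genes each. The 88 include fibroblast and contractile genes. Col1a1 and Col1a2, the chains of type I collagen, had 2046 and 1053 CPM in this animal and at most 17.0 and 47.0 elsewhere, Vim 2042 CPM (at most 81.2 elsewhere), Tpm2 754.5 (11.9), Cav1 236 (2.29) and the muscle actin Acta1 118 (0.883). Regulators of limb and mesenchyme identity were among them, with Twist2 at 58.8 CPM (at most 0.380 elsewhere), Prrx1 at 38.1 (0.510), Hoxc10 at 33.8 (0.475) and Pitx1 at 10.3 (0.121). In S animal 35990, a female, 9 genes stood apart in the same way, among them the macrophage elastase Mmp12 (99.7 CPM, at most 1.12 elsewhere), the lectin receptor Clec4n (15.9, 0.728) and Gpnmb (8.20, 0.434), a gene of lipid-laden macrophages. The source of these transcripts was not tested. The part of these animals in a result was measured by leaving them out, and such values stand beside the results. In every fit without 36016, the BW animals left in S were all female and those of NS all male. Sex and steatosis cannot be told apart within BW in those fits. On 1000 genes, the first principal component of the 10 animals (34.7% of the variance) parted SM2 from BW, the second (24%) parted 36016 and the third (11.7%) parted 35990 from the rest.

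**Figure D1:**
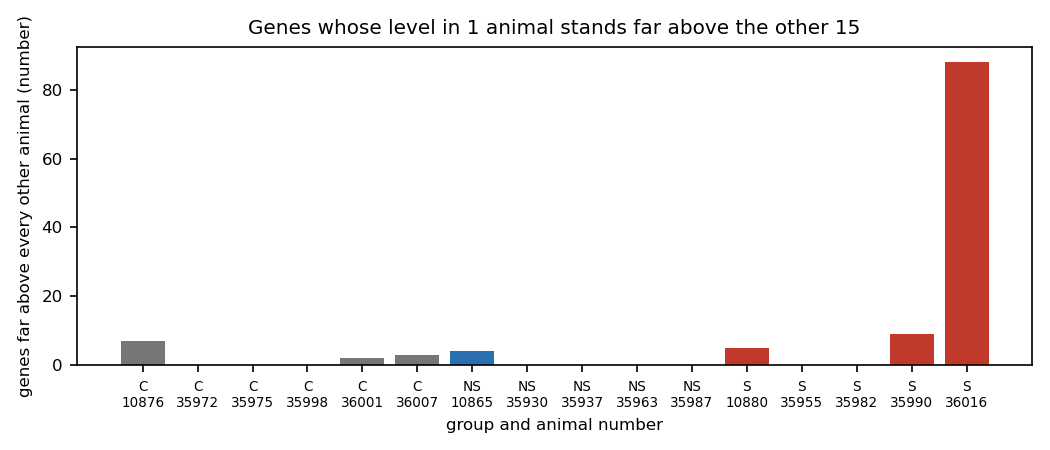
Bars give, for each of the 16 animals, the number of genes with at least 5 CPM and at least 8 times the level of any other animal; grey is C, blue NS and red S. S animal 36016 has 88 such genes, and the other animals have 0 to 9.

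Over 12505 genes, S and NS differed in few by the edgeR quasi-likelihood test. With a Benjamini-Hochberg adjusted p under 0.1 and a difference of 2-fold or more as the rule for a call, 1 gene, Cd36, was called, which is 0.00800% of those tested. At an unadjusted p under 0.05, 760 genes (6.08%) were higher in S and 640 (5.12%) lower, and the median log2 fold change was 0.05. All 5 S values lay above all 5 NS values for 54 genes (0.432%) and below them for 96 (0.768%). Without S animal 36016, 11 of 12250 genes were called (0.0898%), with 612 (5.00%) higher and 483 (3.94%) lower at an unadjusted p under 0.05. Without S animal 35990, 6.89% were higher and 5.32% lower, and without both animals 4.23% were higher and 3.95% lower. These percentages are the background for the counts over gene lists below, which use the unadjusted p. DESeq2 on the same 10 animals called 96 genes.

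**Figure D2:**
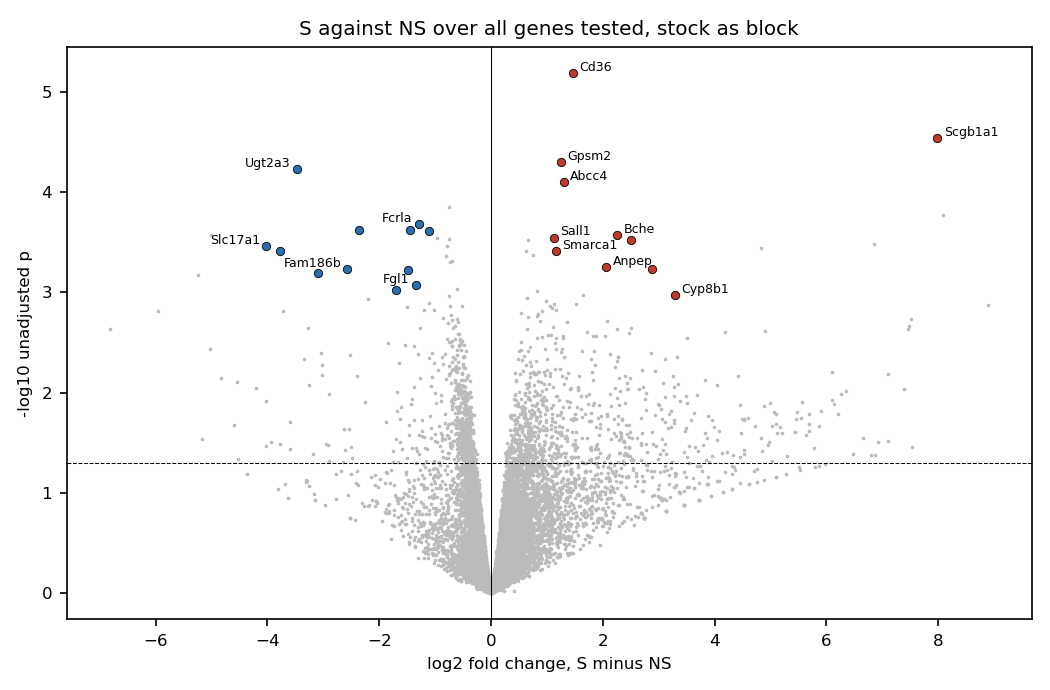
Each point is 1 of 12505 genes, with the log2 fold change (S minus NS) on the horizontal and the unadjusted edgeR p-value as −log10 on the vertical axis; the dashed line marks the threshold of 0.05, and red and blue points are the leading genes of each direction named in the text, some of them labelled. Cd36 has the smallest p, at a log2 fold change of 1.46, and the large fold change of Scgb1a1 rests on 1 animal.

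Cd36, the fatty acid translocase that carries long-chain fatty acids into the cell, rose in S by 2.76-fold. It had 104, 192, 132, 129.8 and 202 CPM in S and 30.2, 68.4, 78.3, 54.2 and 52.1 CPM in NS. Every S animal, male or female, lay above every NS animal, in both stocks, and also above the 6 chow animals, which had 33.5 to 89.8 CPM. All NS and chow animals were male, so the groups could not be compared within females. The log2 fold change was 1.46 ± 0.19 (SE, n = 5 against 5; edgeR unadjusted p = 6.52e-06, adjusted p = 0.0815), and it was 1.35 to 1.57 over 23 other fits, with an unadjusted p under 0.05 in each. In the 7 males alone it was 1.35 (edgeR unadjusted p = 0.000335, adjusted p = 0.0382). S was then represented only by 10880 and by 36016, the library that stood apart. The unadjusted p was larger there than with all 10 animals. The smaller adjusted p came from a fit that called 307 genes and is not stronger evidence for Cd36. The call itself was lost in 7 of the 10 fits that left out 1 animal, where the adjusted p reached 0.308, in BW animals alone (adjusted p = 0.157) and without the stock term (adjusted p = 0.582).

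Of the other proteins of fatty acid uptake, none was called. Of 18 list members tested, 2 were higher and 2 lower at an unadjusted p under 0.05. Cav1, the coat protein of caveolae, was the other higher one, with 1.71, 0.185, 236, 1.75 and 2.29 CPM in S against 0.883, 1.66, 1.78, 1.09 and 0.814 in NS, where 36016 alone stood apart. Slc27a2, a very-long-chain acyl-CoA synthetase of the hepatocyte, had 1679, 1634, 1266, 2115 and 1415 CPM in S and 2045, 2051, 1915, 2486 and 2077 in NS, with unadjusted p = 0.0464 and a log2 fold change of -0.38. Lipc, hepatic lipase, had a log2 fold change of -0.45 (unadjusted p = 0.0413). Fabp1, the abundant fatty acid binding protein of liver, had 2949 to 7908 CPM in S and 5390 to 7490 in NS, and these ranges overlapped.

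**Figure D3:**
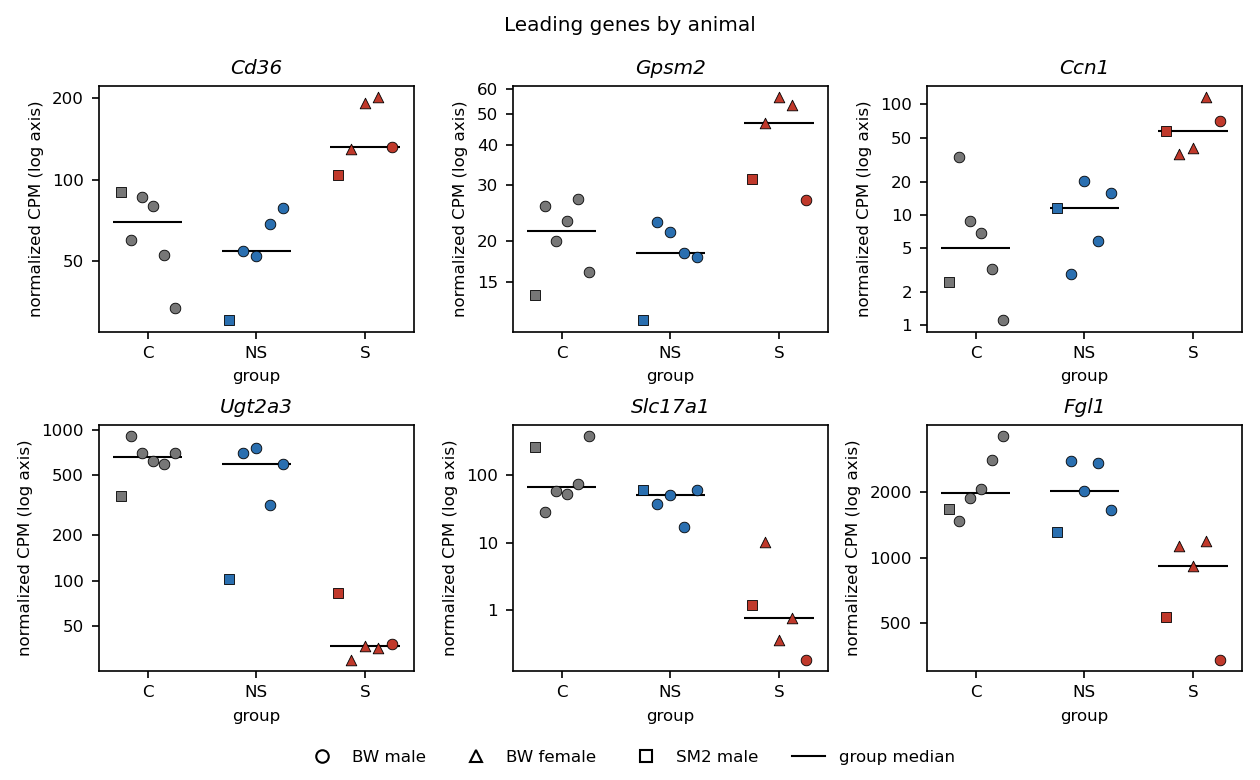
Points are animals, with normalized CPM on a log axis, by group (C chow, NS and S on HFD); circles are BW males, triangles BW females, squares SM2 males, and lines are group medians. Cd36, Gpsm2 and Ccn1 lie higher in each S animal than in each NS animal, and Ugt2a3, Slc17a1 and Fgl1 lie lower.

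Next to Cd36 among the genes higher in S came Gpsm2, Abcc4, Sall1, Bche, Ccn1, Smarca1, Anpep, Fam13a and Cyp8b1, none of them called with all 10 animals (adjusted p 0.183 to 0.324). Gpsm2, which orients the mitotic spindle, had 31.4, 56.4, 26.9, 46.8 and 53.3 CPM in S against 11.4, 18.4, 17.9, 23.1 and 21.4 in NS, a log2 fold change of 1.25 ± 0.20 (edgeR adjusted p = 0.183). Ccn1, a secreted matricellular protein, had 56.9, 40.1, 70.0, 35.5 and 116 CPM against 11.5, 5.74, 15.9, 2.91 and 20.2, with a log2 fold change of 2.51 ± 0.49. Smarca1, a chromatin remodelling ATPase, had 60.9, 72.1, 111, 42.9 and 56.8 CPM against 22.1, 37.6, 30.8, 33.4 and 32.8. For these 3 genes the groups did not overlap. Gpsm2 was highest in the 3 females, and the male S animals 10880 and 36016 lay closest to the NS range. In Smarca1 the male 36016 was highest.

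Others overlapped between groups when the stocks were read together. Abcc4, an efflux pump for bile acids and cyclic nucleotides on the sinusoidal side of the hepatocyte, had 10.7, 79.5, 35.1, 57.4 and 44.0 CPM in S and 4.79, 23.7, 18.7, 25.0 and 18.9 in NS. It was low in both SM2 animals, and within each stock S lay above NS, in SM2 as 1 animal against 1 (log2 fold change 1.30 ± 0.22). The chow animals had 10.8 CPM in SM2 and 27.6 to 40.2 in BW, all of them male. The S males 10880 and 36016 were thus at the chow level of their stock, and only the females of S lay above it. Bche, butyrylcholinesterase, was also low in both SM2 animals, with 0.487, 25.5, 11.6, 16.8 and 7.25 CPM against 0.252, 4.72, 2.57, 1.34 and 3.39. For Bche S lay above NS in BW, whereas the SM2 values of 10880 and 10865 were both too near the floor to give a direction. Anpep, aminopeptidase N, had 66.7, 32.7, 9.89, 18.2 and 37.9 CPM against 48.7, 5.87, 4.94, 4.25 and 2.58, and Cyp8b1, the hydroxylase that makes cholic acid, had 382, 136, 47.8, 348 and 504 CPM against 248, 20.4, 5.43, 19.4 and 26.9. In both genes the SM2 animal was the highest of NS, and again S lay above NS within each stock. For Cyp8b1 the 4 BW animals of NS and 2 of the 4 of S lay below the chow range (144 to 1768 CPM). Sall1, a zinc finger repressor, had 33.0, 90.4, 69.1, 90.2 and 93.3 CPM against 32.0, 41.3, 28.0, 34.0 and 29.6, and its SM2 animals were nearly equal. Fam13a had 12.2, 22.6, 16.6, 3.94 and 8.58 CPM against 4.67, 2.94, 0.395, 0.849 and 1.09.

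Scgb1a1, the secretoglobin of airway club cells, had 479 CPM in S animal 10880 and at most 0.175 in the other S animals, so its place among the leading genes was that of 1 animal.

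The lower side was led by Ugt2a3, a UDP-glucuronosyltransferase that joins glucuronic acid to bile acids and drugs. It had 82.3, 37.0, 37.9, 29.9 and 35.5 CPM in S against 102, 319.5, 594, 707 and 763 in NS, with a log2 fold change of -3.48 ± 0.56 (adjusted p = 0.183). The highest value of S and the lowest of NS were both those of the SM2 animals, and the groups did not overlap. In BW animals alone it was called, with an adjusted p of 0.00054 and a log2 fold change of -4.08. The chow animals had 363 to 905 CPM.

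Slc17a1, a sodium-coupled phosphate and organic anion transporter of liver and kidney, had 1.22, 0.370, 0.187, 10.3 and 0.763 CPM in S and 61.8, 17.5, 61.6, 38.3 and 52.2 in NS, a log2 fold change of -4.02 ± 0.80. Chow livers had 28.5 to 379 CPM, so 4 of 5 S animals had at most 1.22 CPM where each of the 11 other animals had at least 17.5. Rab38, a small GTPase of lysosome-related organelles, had 0.122, 0.185, 0.560, 1.66 and 3.24 CPM against 12.4, 3.70, 9.78, 10.9 and 14.5. Pdilt, a protein disulfide isomerase known from testis, was low in all animals, at 0.609, 0, 0.187, 0 and 0.381 CPM against 5.30, 0.766, 2.17, 5.70 and 2.31, and its highest count in S was 5 reads. Neither gene had overlapping groups. The log2 fold changes were -3.09 ± 0.67 and -3.77 ± 0.76, and the adjusted p-values 0.237 and 0.193.

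Secreted proteins of the hepatocyte were among the leading lower genes. Fgl1, a fibrinogen-like hepatokine, had 534, 919, 340.2, 1137 and 1189 CPM in S against 1319, 2738, 1655, 2777 and 2030 in NS, and Lbp, which hands bacterial lipopolysaccharide to its receptor, had 149.9, 52.5, 40.3, 72.1 and 129 CPM against 385, 266, 120.3, 187 and 268. Fgl1 did not overlap between the groups, and for Lbp NS animal 35987 lay below S animals 10880 and 35990. The remaining leading lower genes were Prodh2, which breaks down hydroxyproline (272, 42.0, 23.7, 39.1 and 28.6 CPM against 369.9, 65.2, 122, 145 and 108), Aff1, a transcription elongation factor (27.2, 23.9, 18.1, 23.8 and 18.4 against 94.6, 50.2, 46.1, 26.8 and 38.1), and, at levels under 20 CPM, Fcrla, Khdrbs2, Fam186b and Pcp4l1, with log2 fold changes between -2.57 and -1.29. In Prodh2 the SM2 animals were higher than the BW animals of their group, and S lay below NS within each stock.

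Leaving out 36016 changed which genes could be called. It also left BW with females only in S and males only in NS, so the calls of this fit mix sex with steatosis. Among the 11 called then were Cd36, Gpsm2, Abcc4, Scgb1a1, Ces1e and the predicted genes Gm27927, Gm27733, Gm27520 and Gm27875, all higher in S, and Fam186b, lower in S. Ces1e, a liver carboxylesterase, had 90.4, 574, 267, 518 and 628 CPM in S and 48.3, 253, 208.5, 304.5 and 301 in NS, and 36016 was the animal of S that lay within the NS range of its stock. Gpsm2 then had a log2 fold change of 1.39 ± 0.14 (adjusted p = 0.00548) and Cd36 one of 1.54 ± 0.18 (adjusted p = 0.0153). Scgb1a1 again came from 10880 alone. In Gpsm2, Abcc4 and Ces1e the 3 females had the highest values of S.

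In 5 of these 11 genes the signal was that of the 3 females. Gm27927 had 7.03, 7.09 and 8.29 CPM in the females 35982, 35955 and 35990 and at most 0.295 CPM in the 13 males of the series. Gm27733 had 5.55, 13.4 and 16.3 CPM in the females and at most 0.289 in the males. Over all 16 animals, 6 genes were at least 4 times higher in every female than in every male, among them Gm27927, Gm27733, Gm27520, Gm27875 and A1bg, and 1, Kcnt2, at least 4 times lower. A1bg, a plasma protein that is higher in the liver of female than of male laboratory mice, had 188, 382 and 128 CPM in the females and 0 to 17.7 in the males. For these genes sex and steatosis cannot be told apart. They were picked after their values were seen, and they part the animals as the sex labels do in all 16. Cd36, Ugt2a3, Slc17a1, Rab38, Fgl1, Ccn1 and Smarca1 had a different pattern, with the 2 male S animals also outside the NS range. These genes were named for groups without overlap, so this follows from that choice. The males of S are 10880 and 36016, of which 36016 is the library that stood apart. For Ugt2a3 the male 10880 had 82.3 CPM, close to the 102 CPM of NS animal 10865.

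In lists known for sex bias in laboratory mice, the median of female-biased genes was higher in S and that of male-biased genes lower. All females were in S, so sex and steatosis cannot be told apart here. Of 12 female-biased genes tested 3 were higher in S at an unadjusted p under 0.05 and 0 lower (median log2 fold change 0.51), namely Abcc4, A1bg and Trim24. Trim24, a nuclear receptor cofactor, had 15.3, 50.9, 112, 29.8 and 23.1 CPM in S against 8.83, 22.1, 8.0, 13.7 and 6.37 in NS and was highest in the male 36016. Of 7 male-biased genes tested, 1 was higher and 2 lower (median log2 fold change -0.61). Over all genes 6.08% were higher and 5.12% lower. Cyp7b1, the oxysterol hydroxylase, had 33.7, 14.1, 19.0, 18.4 and 7.72 CPM in S against 38.1, 29.1, 56.1, 25.0 and 69.4 in NS (unadjusted p = 0.00413). Omd had 1.58, 0, 0, 0.0875 and 0.0953 CPM in S against 1.01, 1.02, 1.98, 1.335 and 2.58 in NS. It was thus lower in S in BW only, and in SM2 the S animal lay above the NS animal.

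**Figure D4:**
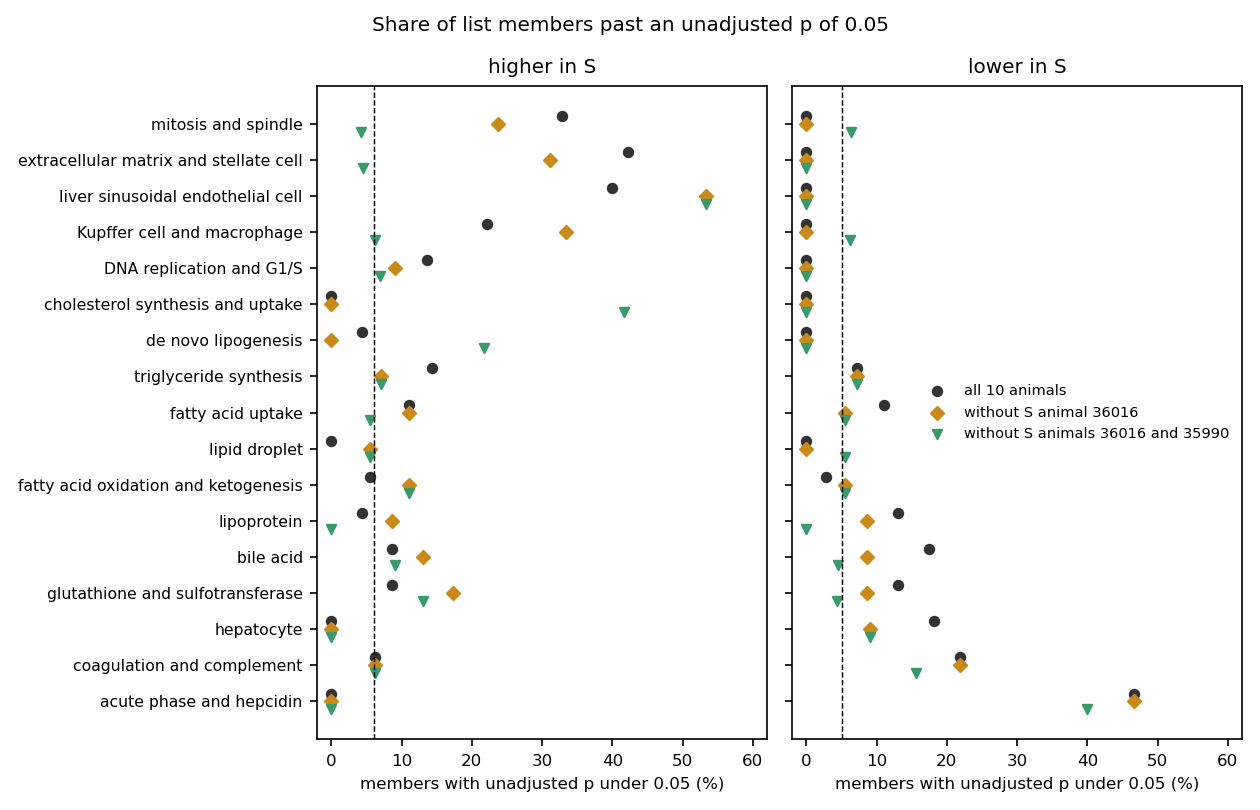
For 17 gene lists, points give the percentage of members tested that had an unadjusted p under 0.05 and were higher (left) or lower (right) in S, with all 10 animals and without S animal 36016 or both 36016 and 35990; dashed lines are the share over all genes with all 10 animals, 6.08% and 5.12%. The acute phase and sinusoidal endothelial lists have similar or higher shares without these animals, those of mitosis and extracellular matrix are lower in both settings, and that of macrophages is lower only without both.

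Acute phase proteins were lower in livers with steatosis. Of 15 genes tested, 7 were lower in S at an unadjusted p under 0.05 and 0 higher, against 5.12% lower over all genes, and the median log2 fold change was -0.67 against 0.05. Without 36016 the counts were 7 and 0 (median -0.59), and without 36016 and 35990 6 and 0 (-0.57). None of these genes was called. The list summed to 44020, 35380, 28320, 42650 and 42240 CPM in S and to 68210, 78070, 48350, 62350 and 62500 CPM in NS, so all S animals lay below all NS animals, and below the chow animals, which had 48730 to 84560 CPM.

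Fibrinogen, the clotting protein that polymerizes to fibrin, was lower in all 3 of its chains without overlap between the groups. Fga had 7596, 6989, 6015, 9885 and 7054 CPM in S and 11960, 13870, 12600, 10580 and 12330 in NS, a log2 fold change of -0.70 ± 0.17 (unadjusted p = 0.00191). Fgb had 6912, 5685, 4594, 7266 and 6166 CPM and 10120, 11030, 7992, 10080 and 9759, and Fgg 4809, 4248, 3281, 5916 and 4626 CPM and 7212, 8396, 7286, 7523 and 7842, with log2 fold changes of -0.67 ± 0.17 and -0.73 ± 0.17. Their adjusted p-values were 0.34, 0.343 and 0.324. Haptoglobin (Hp), which binds free hemoglobin, had 8936, 4645, 4281, 4484 and 9328 CPM against 13490, 20260, 6991, 13370 and 13310, and Itih3, which stabilizes hyaluronan, had 1076, 127, 253, 659 and 1243 CPM against 6328, 2211, 719, 1472 and 1910. In both, the NS animal 35987 lay within the S range. Hemopexin (Hpx) had 5701, 4993, 3166, 4985 and 5954 CPM against 6752, 8118, 4910, 8122 and 7224. Hp and Itih3 are named after their values were seen, as the list's members beyond the first 4 by p.

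Among genes of coagulation and complement, also made mostly in hepatocytes, 7 of 32 were lower in S and 2 higher at an unadjusted p under 0.05, and the counts were the same without 36016 (median log2 fold change -0.22 and -0.15). C7, of the terminal complement complex, had 7.43, 31.4, 28.6, 26.9 and 37.4 CPM in S against 16.2, 47.1, 45.8, 57.1 and 49.6 in NS, and the serine protease Masp2 of the lectin pathway had 699, 433, 278, 585 and 425 against 768, 980.2, 608, 818 and 775. F11, clotting factor XI, had 556, 133, 194, 205 and 173 CPM against 909, 429, 164, 401 and 264. F8 and Vwf were the 2 higher ones, and both are known as products of endothelium. F8, clotting factor VIII, had 5.24, 21.3, 19.8, 19.6 and 14.1 CPM in S and 2.15, 6.00, 13.8, 5.46 and 9.90 in NS, with a log2 fold change of 1.12 ± 0.27 (unadjusted p = 0.00132). Over the hepatocyte marker list 2 of 11 genes were lower (Fgb and Hpx, which are also in the acute phase list) and the median was -0.37. Of the pericentral markers 1 of 14 (Lect2) was lower, and 0 of 15 periportal markers differed in either direction at an unadjusted p under 0.05.

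Markers of the sinusoidal endothelium, the fenestrated vessel lining of the liver, were higher in S. Of 15 tested, 6 were higher at an unadjusted p under 0.05 and 0 lower, against 6.08% higher over all genes, with a median log2 fold change of 0.52. Without 36016 the count was 8 of 15, and without 36016 and 35990 it was also 8 of 15 (median 0.65). Mrc1, the mannose receptor, had 16.7, 88.6, 96.5, 98.3 and 142 CPM in S against 9.08, 41.1, 72.3, 68.8 and 62.9 in NS, a log2 fold change of 0.82 ± 0.19 (unadjusted p = 0.000966, adjusted p = 0.31). Cdh5, the cadherin of endothelial junctions, had 11.2, 22.9, 20.7, 24.4 and 39.3 CPM against 5.17, 12.1, 19.3, 16.3 and 14.9, and Pecam1 15.1, 87.3, 60.1, 60.8 and 55.9 against 7.19, 30.4, 51.2, 48.7 and 43.8. Flt4 and Kdr, receptors for vascular endothelial growth factors, had log2 fold changes of 0.63 ± 0.18 and 0.97 ± 0.29. In these genes the SM2 animal was the lowest of its group, and S lay above NS in SM2 and, apart from NS animal 35987 in Flt4 and Kdr, in BW. Hspg2, the basement membrane proteoglycan perlecan, named after its values were seen, did not overlap between the groups, with 23.9, 20.5, 31.2, 31.8 and 30.9 CPM in S and 13.9, 18.0, 18.6, 15.3 and 17.0 in NS.

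The count for macrophage markers depended on S animal 35990. Of 18 Kupffer cell and macrophage markers tested, 4 were higher in S and 0 lower at an unadjusted p under 0.05 (6 of 18 without 36016), but 1 was higher and 1 lower of the 16 tested without 36016 and 35990. The list summed to 1854 CPM in 35990, to 371, 1101, 636 and 1132 CPM in the other S animals and to 434 to 850 CPM in NS. Removal of 35990, the highest S animal, in itself lowers S. Slc40a1, the iron exporter ferroportin, stayed higher without both animals (log2 fold change 1.21, unadjusted p = 0.000479). It had 82.9, 354, 159.6, 509.6 and 416 CPM in S against 71.8, 141, 139, 145 and 169 in NS and its highest values in the 3 females. Trem2, a lipid receptor of macrophages, had 0.122, 0, 0, 0 and 2.1 CPM in S and no read in the 5 NS animals. It was thus tested only because of its level in 35990. Mpeg1, a pore-forming protein of macrophages, had 59.8, 37.7, 28.6, 20.7 and 123 CPM against 69.5, 16.7, 21.2, 20.5 and 15.2. Clec4f, a marker of Kupffer cells, overlapped between the groups (46.3, 139, 85.9, 134 and 134 CPM against 54.1, 73.6, 99.8, 111 and 50.9).

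Other immune lists showed little. Of 20 lymphocyte genes 1 was higher, the leukocyte phosphatase Ptprc (CD45), with 6.82, 12.9, 11.2, 13.2 and 33.6 CPM in S against 8.20, 6.64, 9.48, 11.2 and 7.73 in NS and its maximum again in 35990. Of 10 neutrophil and monocyte genes tested 2 were lower, S100a8 and Camp, of which S100a8 had 4.38, 4.07, 3.55, 1.84 and 6.10 CPM against 3.28, 20.3, 3.46, 21.0 and 6.51 and was high in NS animals 35963 and 35930. Of 37 genes of the interferon response and antigen presentation 2 were lower, Usp18 and Bst2, and 0 were higher.

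In the panel of 12 cytokines and chemokines 1 passed an unadjusted p of 0.05. Cxcl1, which recruits neutrophils, had 1.34, 0.370, 0.933, 0.438 and 6.86 CPM in S and 11.7, 80.5, 0.296, 92.9 and 0.271 in NS, so 2 NS animals had high values and 2 had values below all of S (log2 fold change -4.03 ± 1.35, unadjusted p = 0.0121, adjusted p = 0.402). The 2 NS animals with the most Cxcl1 were those with the most S100a8. Il1b had 2.92, 10.4, 7.47, 6.83 and 61.7 CPM in S against 1.77, 9.44, 6.13, 17.8 and 4.61 in NS, and Cxcl16 10.2, 3.70, 3.17, 5.17 and 38.2 against 5.80, 4.72, 4.25, 5.82 and 3.12, so both were highest in 35990 (unadjusted p = 0.102 and 0.0521). Il18 and Ccl6 had their S maximum there too, at 19.4 and 17.9 CPM (unadjusted p = 0.923 and 0.901). Cxcl12 was even across the groups, at 58.8 to 91.9 CPM in S and 62.4 to 91.7 in NS, and its log2 fold change was 0.01 ± 0.17. Ccl2, Ccl20, Cx3cr1, Cxcl10, Il15 and Cxcl9 had unadjusted p-values between 0.293 and 0.996.

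Genes of the extracellular matrix and stellate cells were higher in S for 19 of 45 members at an unadjusted p under 0.05 and lower for 0, with a median log2 fold change of 0.69. Without 36016, 14 of the list were higher (median 0.46), and without 36016 and 35990 2 of the 44 then tested were (0.28). The list sum was highest in 36016 (10290 CPM), and removal of the highest S animal in itself lowers S. Col1a1 had 7.67, 3.70, 2046, 7.27 and 10.0 CPM in S against 3.91, 12.8, 5.93, 7.64 and 3.26 in NS, and without 36016 its log2 fold change was 0.16 (unadjusted p = 0.701). Mmp2, the matrix metalloproteinase gelatinase A, had 1.71, 1.29, 50.6, 2.01 and 24.7 CPM against 0.379, 1.02, 1.28, 2.31 and 1.63, with high values in 36016 and 35990. Col3a1, the fibrillar collagen that accompanies type I, had its highest value in 35990. It had 92.2, 63.2, 84.4, 79.9 and 129 CPM in S against 58.0, 49.3, 73.9, 62.2 and 47.6 in NS, with a log2 fold change of 0.63 ± 0.20, and 0.65 ± 0.21 without 36016 (unadjusted p = 0.0112), and it was 0.41 without 36016 and 35990 (unadjusted p = 0.0504). Reln, which stellate cells secrete, had 35.1, 35.3, 68.1, 55.9 and 98.8 CPM against 17.8, 32.0, 42.3, 46.2 and 34.7, and Loxl1, a collagen cross-linking enzyme, had 1.1, 0.925, 15.9, 1.23 and 1.91 against 0.505, 0.510, 0.296, 0.485 and 0.678 without overlap. Dcn and Lum, proteoglycans of fibroblasts, overlapped, with Dcn at 103 to 184 CPM in S and 112 to 257 in NS. Of 14 markers of stellate cells and fibroblasts, 4 were higher and 0 lower, and 1 was higher without both animals.

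The count for cell division genes depended on the same 2 animals. Of 61 mitosis and spindle genes, 20 were higher in S and 0 lower at an unadjusted p under 0.05 (median log2 fold change 1.5). A gene was tested if it reached 0.5 CPM in 1 animal, so some members entered only through 36016 or 35990. Such members can hardly come out lower in S, so the filter in part sets this count and median. Without 36016 the count was 14 higher of the 59 then tested (median 1.07), and without 36016 and 35990 2 were higher and 3 lower of the 47 then tested (median 0.23). These animals had the highest sums of S, and their removal in itself lowers S, so the smaller counts show their weight only. The list summed to 246 CPM in 36016 and 244 in 35990, to 131, 88.0 and 103 in the S animals 10880, 35982 and 35955, and to 124, 88.2, 91.9, 77.8 and 76.0 in NS. Top2a, which untangles replicated DNA, had 1.58, 1.11, 35.7, 0.613 and 7.34 CPM in S against 0.126, 0.510, 0.296, 1.21 and 0.271 in NS, and Cdk1, the mitotic kinase, had 0.731, 1.29, 2.05, 0.438 and 7.25 against 0.379, 0.383, 0.593, 0.485 and 0.136. Racgap1, of the central spindle, was the member without overlap, with 1.58, 0.925, 2.80, 0.963 and 3.34 CPM against 0.252, 0.766, 0.296, 0.364 and 0.678.

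DNA replication genes had a smaller count. Of 44, 6 were higher and 0 lower (median 0.36), and 4 were higher without 36016 and 3 of 43 without both, while 35 of 44 had a positive log2 fold change. Lig1, the replicative DNA ligase, did not overlap between the groups, with 29.5, 47.9, 36.6, 31.5 and 34.5 CPM in S against 22.0, 21.1, 21.8, 21.2 and 28.2 in NS. Mcm6, of the replicative helicase, had 7.31, 14.8, 10.1, 11.7 and 25.5 CPM against 4.29, 4.72, 9.39, 6.92 and 6.24 (log2 fold change 1.12 ± 0.28, unadjusted p = 0.00224). Ccnd1, cyclin D1, had 3.41, 2.77, 38.3, 5.52 and 62.3 CPM against 1.77, 2.42, 7.80, 2.18 and 4.07 and was high in 36016 and 35990. Jun, an immediate early transcription factor from the growth list, had 40.1, 136, 144, 175 and 233 CPM against 13.6, 29.1, 18.3, 42.6 and 133, with NS animal 35937 in the S range.

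**Figure D5:**
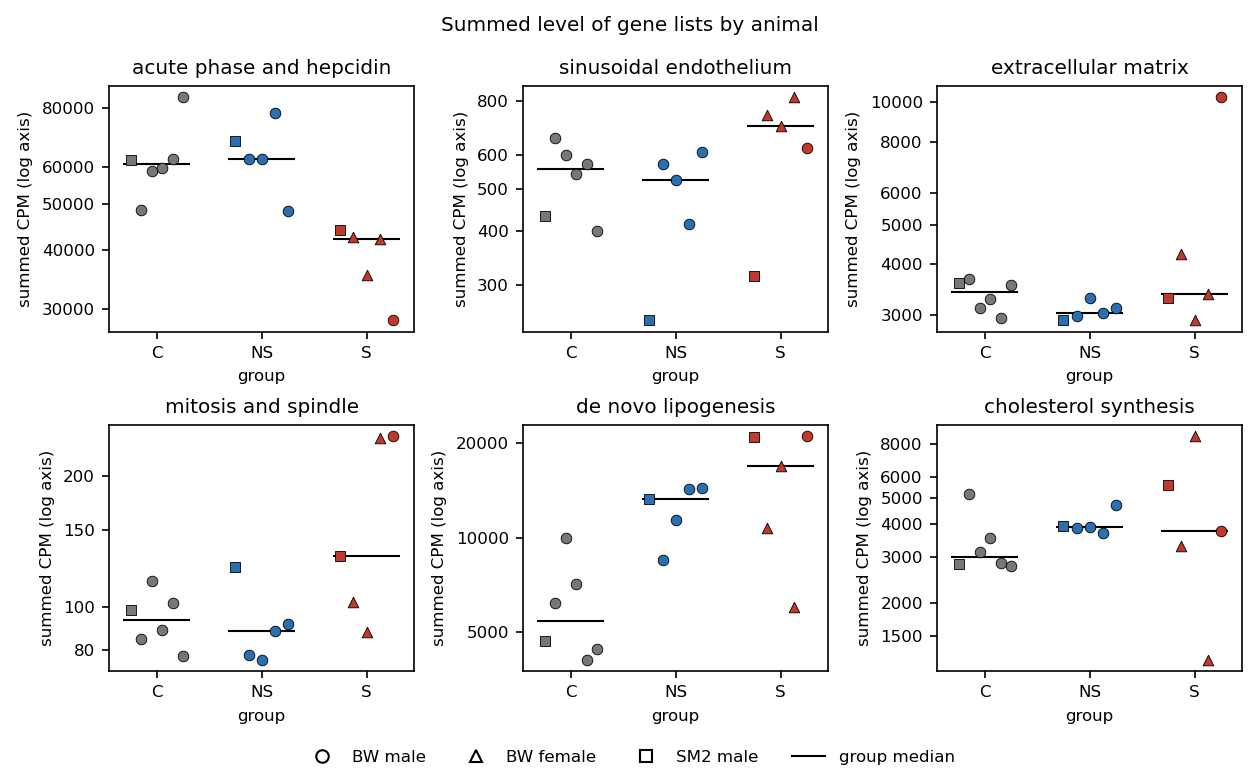
Points are animals, with the summed CPM of 6 gene lists on log axes, by group (C chow, NS and S on HFD); circles are BW males, triangles BW females, squares SM2 males, and lines are group medians. The acute phase sum is lower in each S animal than in each NS animal, the matrix sum is high in 1 S animal and the mitosis sum in 2, and the lipogenesis and cholesterol sums spread more widely in S than in NS.

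None of the lipid droplet proteins was past the threshold. Of 18 tested, 0 had an unadjusted p under 0.05 in either direction, and the median log2 fold change was -0.08. Plin2, the main coat protein of hepatocyte droplets, had 207, 160.3, 409.8, 504 and 467 CPM in S and 132, 619, 305, 451 and 285 in NS, and the chow animals had 114 to 1929 CPM. Cidec, which enlarges droplets, had 147, 166, 187, 125 and 105 CPM against 122, 212, 99.9, 134 and 133. Both ranges overlapped, and in both the highest value on HFD was that of NS animal 35963. Pnpla2, the first triglyceride lipase, had 85.5 to 178 CPM in S and 109 to 212 in NS.

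Genes of fatty acid synthesis spread widely within S. Over the 23 lipogenic genes tested, 1 was higher in S at an unadjusted p under 0.05, Elovl6, the elongase of saturated fatty acids, with 243, 294, 245, 71.3 and 24.9 CPM in S against 82.5, 94.2, 70.2, 34.1 and 60.1 in NS. The S animals 10880, 35982 and 36016 lay above all NS animals, and 35990 lay below them. The list summed to 20940, 16940 and 20980 CPM in those 3 S animals, to 10730 in 35955 and to 6007 in 35990, against 8499 to 14350 CPM in NS and 4096 to 9960 in C. Acly, which makes cytosolic acetyl-CoA, had 1058, 1407, 865, 167 and 51.6 CPM in S against 444, 258, 389, 85.7 and 331 in NS, and Acaca, the rate-limiting carboxylase, had 174, 444, 394, 118 and 58.6 against 104, 132, 152, 45.7 and 128. Scd1, the delta-9 desaturase, had 6866, 4306, 9220, 2892 and 1199 CPM against 2348, 4565, 5991, 1982 and 1931. The count moved with the animals in the fit. Without 36016, 0 of 23 were higher and 0 lower, and Elovl6 had unadjusted p = 0.0696. Without 35990, the S animal with the lowest sum, 6 were higher and 0 lower, against 6.89% over all genes, and without both 5 and 0. Leaving out the lowest animal of S in itself raises S, so the counts without 35990 are no evidence of a difference between the groups. Acly, Acaca and Scd1 are named after their values were seen.

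The genes of cholesterol synthesis and uptake spread in the same way. With all animals 0 of 24 had an unadjusted p under 0.05 in either direction (median 0.22). Without 36016 it was again 0 in either direction (median 0.30). Without 35990, the S animal with the lowest sum at 1220 CPM, 6 of 24 were higher and 0 lower. Without 36016 and 35990, 10 of 24 were higher and 0 lower (median 0.65), against 4.23% over all genes. Leaving out the lowest S animal in itself raises S, so these counts show the weight of 35990 and no difference between the groups. Hmgcs1, which makes the precursor of mevalonate, had 219.7, 556, 74.7, 95.3 and 18.8 CPM in S against 78.1, 68.4, 147, 67.2 and 91.7 in NS, and Sqle, squalene epoxidase, had 194, 258, 64.0, 101 and 7.82 against 81.8, 97.6, 133, 118 and 109.5. The lowest value of the 10 was in 35990 for both genes and the highest in 35982. These genes too are named after their values were seen.

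Of 14 genes of triglyceride assembly 2 were higher and 1 lower at an unadjusted p under 0.05. Gpat3, an acyltransferase of the first step, had 18.0, 14.8, 17.4, 24.2 and 25.2 CPM in S against 7.32, 14.8, 21.3, 13.2 and 11.9 in NS (log2 fold change 0.59 ± 0.23, unadjusted p = 0.0264). Its relative Gpat4 had a log2 fold change of -0.34 ± 0.14 (unadjusted p = 0.0367), and Agpat1 one of 0.69, which was 0.35 (unadjusted p = 0.119) without 36016. Dgat2, which makes triglyceride from diglyceride, had 1499, 1506, 1562, 728 and 499 CPM against 980.4, 1002, 419, 783 and 999, with the same 3 S animals high as for Elovl6.

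Fatty acid oxidation had 2 of 36 genes higher and 1 lower (median -0.14). Ehhadh, the peroxisomal bifunctional enzyme, had 778, 1402, 1389, 2268 and 1682 CPM in S against 330.4, 1398, 1484, 962 and 725 in NS, and Hadhb, of the mitochondrial trifunctional protein, had 341, 574, 519, 686 and 587 against 470.3, 829, 682, 925 and 739. The hormone Fgf21 had 28.4, 2.77, 16.1, 22.9 and 115 CPM against 0.883, 34.2, 4.45, 7.64 and 5.29, with the S maximum in 35990. Cpt1a, the gate of mitochondrial oxidation, had 176 to 445 CPM in S and 153 to 686 in NS.

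Of 23 lipoprotein genes 1 was higher and 3 lower. Scarb1, the receptor for high density lipoprotein, did not overlap, with 389, 372, 379, 370.1 and 304 CPM in S against 418, 522, 445, 469 and 556 in NS (log2 fold change -0.40 ± 0.14, unadjusted p = 0.0156). Apom and Apoa2, apolipoproteins of that particle, had log2 fold changes of -0.72 ± 0.28 and -0.60 ± 0.24, and Abcg1, a cholesterol exporter, one of 0.82 ± 0.31. Without both 36016 and 35990, 0 of the list differed in either direction at an unadjusted p under 0.05.

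In the bile acid list Abcc4 and Cyp8b1 were higher and 4 of 23 were lower (Cyp7b1, Amacr, Hsd3b7 and Cyp27a1). Hsd3b7 had 371, 300.3, 278, 373 and 245 CPM in S against 683, 429, 325, 358 and 337 in NS and Cyp27a1 807, 484, 552, 589.8 and 426 against 867, 714, 532, 845 and 717, each with overlap, and log2 fold changes of -0.39 and -0.37. Cyp7a1, the rate-limiting enzyme of the classic pathway, overlapped as well (258, 398, 121, 95.0 and 362 CPM against 56.5, 147, 19.1, 70.4 and 230.3).

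Of 5 UDP-glucuronosyltransferases tested 1, Ugt2a3, was lower and 0 higher at an unadjusted p under 0.05. Papss2, which makes the sulfate donor for sulfotransferases, was lower without overlap, with 256, 306, 384, 336 and 275 CPM in S against 401, 455, 528, 654 and 584 in NS (log2 fold change -0.74 ± 0.15, unadjusted p = 0.000497, adjusted p = 0.214). Gstm3, a glutathione transferase, had 211, 2.22, 1.68, 3.15 and 50.0 CPM against 28.5, 2.17, 1.88, 3.88 and 2.03, with 10880 and 35990 high. Gclc, which limits glutathione synthesis, had 444, 727, 1273, 724 and 924 CPM against 403, 610.3, 705, 497 and 435. Over these glutathione and sulfotransferase genes, 2 of 23 were higher and 3 lower. Of 25 cytochrome P450 genes 2 were higher, Cyp2u1 and Cyp4v3, and 0 lower. Cyp2e1, among the most abundant of them, had 13840 to 22030 CPM in S and 10890 to 28370 in NS.

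Of 34 genes of gluconeogenesis, glycolysis and glycogen, 5 were higher and 1 lower. Pfkm and Pfkfb3, of the phosphofructokinase step, had 22.8, 9.25, 9.89, 6.04 and 16.9 CPM in S against 18.7, 3.19, 2.27, 4.25 and 4.75 in NS and 1.83, 3.51, 6.53, 2.54 and 8.58 against 1.14, 1.53, 2.27, 2.79 and 1.22, with log2 fold changes of 1.28 ± 0.34 and 1.30 ± 0.41. Pfkm was highest in the SM2 animal of each group, and S lay above NS within each stock. Hk1 and Pkm, the hexokinase and pyruvate kinase of tissues other than liver parenchyma, had their maxima in 35990 and 36016, respectively. Gys2, liver glycogen synthase, had a log2 fold change of -0.60 ± 0.25. Of 46 amino acid and urea cycle genes 1 was higher (Bcat2) and 3 lower (Prodh2, Haao and Kmo). Haao and Kmo, of the kynurenine pathway of tryptophan breakdown, had log2 fold changes of -0.60 ± 0.17 and -0.52 ± 0.19.

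Stress and cell death lists were near the background. Of 32 genes of the unfolded protein response 2 were higher and 2 lower. Sdf2l1, a chaperone cofactor of the endoplasmic reticulum, had 27.5, 36.2, 22.0, 38.8 and 36.8 CPM in S against 45.0, 54.0, 38.3, 65.8 and 59.3 in NS (log2 fold change -0.69 ± 0.19, unadjusted p = 0.00347), and Chac1, which degrades glutathione, had 0.244, 0.185, 1.87, 0.175 and 50.7 CPM in S and 0.379, 1.15, 0.296, 0.364 and 0.678 in NS. Of 34 apoptosis genes 1 was higher, Dapk1, and 2 lower, the receptor Tnfrsf1a (125, 88.6, 83.2, 115 and 120.2 CPM against 159, 139, 144, 129 and 126, without overlap) and Bax. Of 22 clock genes 2 were higher, Bhlhe40 among them, and 1, Cry1, lower. Of 12 bile duct and progenitor markers 1 was higher, Cldn7, with 0.731, 0.185, 1.12, 0.70 and 19.9 CPM in S against 0.505, 0.510, 0.790, 0.243 and 1.09 in NS.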

How the data were processed

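Liver RNA of 16 deer mice was sequenced as directional paired-end libraries. The authors aligned the reads to the deer mouse genome assembly HU_Pman_2.1 with STAR (version 2.7.2) and deposited featureCounts read counts per gene, not normalized, of uniquely mapped reads. The strand setting of the counting and the way mouse-style gene symbols were assigned are not given in the sources used here. All 16 columns were matched to animals by name, and 0 were left over. The table held 16910 genes, of which 2490 had no count in the 10 HFD animals.

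S and NS were compared in edgeR (version 4.0.16, R version 4.3.3) with quasi-likelihood F tests on TMM-scaled libraries, under a model of stock plus group. Genes reaching 0.5 CPM in 1 or more of the 10 animals were tested, 12505 in all. Calls needed an adjusted p (Benjamini-Hochberg) under 0.1 together with a 2-fold or larger difference. SE is that of the log2 fold change, from its F statistic. CPM per animal were computed with TMM factors over all 16 animals. Gene lists were described by counts at an unadjusted p under 0.05 beside the same share over all genes. List sums add the CPM of all members present in the count table, tested or not.

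Named genes were the called genes, filled up to 12 per direction by smallest p among genes averaging 1 CPM or more that differed 2-fold or more, up to 4 members per list with an unadjusted p under 0.05, and a panel of 12 cytokines and chemokines. Members and lists were chosen with earlier results of these data known, and genes outside the rule are said to be so where they appear or are given for their range only. The test was also run on simulated data for S against NS (12505 genes, 200 changed). There it recovered 90% of genes changed 4-fold and 100% of those changed 16-fold, with 6 false calls. These rates are for the simulated counts and were not shown to hold for the livers. In the livers Ugt2a3, Pdilt and Slc17a1 were 11.15-, 13.64- and 16.23-fold lower in S without overlap. None of these genes was called (edgeR adjusted p 0.183, 0.193 and 0.193). Alternatives were DESeq2 (version 1.42.0), RLE factors, other filters, no stock term, sex as a covariate, subsets of animals and each animal left out. Leaving out 36016 and 35990 together, and 36016 in the DESeq2 and 16-animal fits, was added after seeing the data. Replicates are separate animals, and p-values measure the spread between them. A few genes that met these rules are not reported here.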

Additional observations from a re-analysis of the deposited data

Results flagged for a closer look

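In groups of 5 animals, 68 sets of values were checked for 1 animal apart from the other 4, by the gap to its neighbour as a share of the group's range (critical value 0.71), and 12 passed, where chance alone passes about 1 in 20. Of these, 4 came from NS animal 10865, the SM2 animal of NS, for single genes. The gap was 0.814 of the range for Abcc4, 0.752 for Anpep, 0.711 for Fam186b and 0.828 for Scgb1a1. The number of genes far above every other animal was 4 in 10865 and 0 in the other NS animals, a gap of 1.0. In S the SM2 animal 10880 stood apart for Prodh2 (0.77), Scgb1a1 (0.974), Ugt2a3 (0.767) and the summed CPM of the sinusoidal endothelial markers (0.713). In each of these the animal apart was the SM2 animal of its group.

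The remaining cases came from BW animals. S animal 36016 stood apart by its 88 genes far above every other animal (0.898), S animal 35955 by Slc17a1 (10.3 CPM against at most 1.22 in the rest of S, a gap of 0.723) and NS animal 35987 by the summed CPM of the cholesterol genes (4702 against at most 3932, a gap of 0.748).

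For Nqo1 and Neu2 the difference between S and NS itself differed between the stocks by the edgeR interaction test. Nqo1, a quinone reductase, had a log2 difference of 5.19 in SM2 and 0.12 in BW, that is 5.17 by the interaction term (adjusted p = 0.0135), with 3.66 CPM in NS animal 10865, 142.5 in S animal 10880 and 129 to 236.5 in the 8 BW animals on HFD. The chow SM2 animal had 52.4 CPM. Neu2, a sialidase, had -4.48 in SM2 and -0.17 in BW (interaction -5.20, adjusted p = 0.0237), with 0.244 CPM in 10880 and 10.6 in 10865. Each stock difference in SM2 is 1 animal against 1, which are assumed to vary like the BW animals.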

How the results depend on the processing

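The count of called genes, 1 with all animals, was 96 with DESeq2, 0 without the stock term (where 597 genes were higher and 447 lower at an unadjusted p under 0.05), 17 with all 16 animals and stock, 2 in BW animals alone, 330 with sex and stock, 307 in males alone and 0 at an adjusted p under 0.05. With alternatives added after seeing the data it was 25 in the 16-animal fit without 36016, 82 with DESeq2 without 36016 and 13 without 36016 and 35990. Leaving out 1 animal gave 0 to 11 calls, with 11 without S animal 36016, 4 without S animal 35990, 2 without 10865, 35937, 10880 or 35955 and 0 without 35987 or 35982. Genes at an unadjusted p under 0.05 then numbered 499 to 898 higher and 351 to 725 lower, with the lowest counts without NS animal 35930 and 407 lower without 35963. The higher ones were 1254 with sex and stock and 1232 in males alone, fits in which S is represented by its 2 males, 36016 and 10880. The cause of these differences was not tested. Over the 116 named genes and all alternatives, 394 values fell short of the unadjusted threshold, 10 newly passed it, 9 reversed and 2232 were counted as the same. Reversal was counted only for genes with an unadjusted p under 0.05 in the main fit. Changes of sign in cytokine panel genes not past it, such as Ccl6 at -0.52 without 36016 and 35990, are among the 2232. The reversed log2 fold changes were A1bg at -3.53 and -3.66, Cyp4v3 at -0.23 and -0.24 (with sex and stock, and in males alone), Gpnmb at -2.71 (sex and stock), Chac1 at -1.37, Cldn7 at -0.14 and Col1a1 at -0.025 (without 36016 and 35990) and Scgb1a1 at -0.063 (without 10880, and up to 8.38 with another animal left out). No paired analysis was possible because the labels give no number shared by animals of different groups. Depth was lowest in 36016 and 35982, so values under 1 CPM there rest on fewer than 6 reads.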

Other observations

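Of the 96 genes whose S values all lay below all NS values, 8 code for proteasome subunits, 4 for proteins of the mitochondrial ribosome and 3 for complex I. These and related families were formed by symbol after the values were seen, and they are given as a description without a test. Of 37 proteasome subunits, 12 were lower in S and 0 higher at an unadjusted p under 0.05, against 5.12% lower over all genes, and 8 had no overlap between the groups. The median log2 fold change was -0.28, and without 36016 it was -0.25, again with 12 lower. Proteasome transcripts summed to 5565, 5241, 4765, 5545 and 5017 CPM in S, below the 5869 to 8380 CPM of NS and the 5631 to 8141 CPM of chow animals. Psma3, of the catalytic core's outer ring, had 220.4, 229, 190.4, 232 and 211 CPM in S and 277, 331, 286, 409.9 and 294 in NS.

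Counts for 2 mitochondrial families were high with all animals and smaller without 36016. Of 42 complex I genes, 23 were lower and 0 higher (median log2 fold change -0.45), and 13 were lower without 36016 (median -0.35). Of 70 genes of the mitochondrial ribosome, 27 were lower (median -0.33) and 11 without 36016 (-0.25). Ndufs6, of complex I, had 122, 118, 107, 125 and 131 CPM in S and 194.5, 194, 144, 246 and 139 in NS without overlap. Tfam, which packages mitochondrial DNA, had 29.8, 32.9, 30.2, 32.7 and 30.3 CPM against 48.8, 37.4, 44.3, 41.2 and 35.3. Cytosolic ribosomal proteins had 10 of 32 lower with all animals and 2 without 36016, complexes III and IV together 5 of 14 and 1, and ATP synthase 3 of 6 and 0. S animal 36016 had the lowest sum of all 10 in each of these families, and NS animal 35930 had the highest. For complex I, 35930 had 10390 CPM, the other NS animals 6486 to 8818 and the S animals 4454 to 6615.

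Rbp4, the plasma carrier of retinol made by hepatocytes, had 4321, 3573, 3054, 4819 and 4880 CPM in S and 6665, 5649, 5928, 8424 and 6792 in NS, a log2 fold change of -0.69 ± 0.19 (edgeR adjusted p = 0.353), and the chow animals had 6122 to 9183 CPM. It was named after its values were seen.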
